A study of Mus musculus with 2 samples.

Results

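Sites of open chromatin that lie inside protein-coding exons were described in mouse calf muscle. Accessibility was measured by DNase-seq (sequencing of the DNA ends left where the enzyme DNase I cuts exposed chromatin) in the gastrocnemius of B6CASTF1/J females aged 2 months. These are F1 mice, and both libraries came from whole tissue with no treatment, so all cell types of the muscle contribute. The 2 libraries form 1 group. The labels give them separate biosamples but 1 donor identifier, so the spread between them may be partly technical. A region was kept when a peak of each library overlapped by at least 1 bp (a shared peak), when its midpoint lay in the coding sequence of a protein-coding gene, and when it was more than 1 kb from every annotated transcript start. This gave 1142 regions, here called coding exon peaks, of 49160 shared peaks (2.32%, exact Clopper-Pearson 95% interval 2.19 to 2.46). All intervals below cover counting error only, and no test between groups was possible.

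Muscle fibres are multinucleate cells filled with contractile sarcomeres, and their genes are switched on by myogenic factors such as MYOD and MYOG, which bind the E-box CAGCTG. Open chromatin is usually found at promoters, where transcription starts, and at enhancers, which mostly lie in introns or between genes. A coding exon must also encode amino acids, so a protein that binds there reads bases that the ribosome reads too. A footprint is a short stretch inside open DNA where cuts are depleted, as happens when a protein covers it. CTCF is an insulator factor that holds chromatin loops and has a long, well defined binding motif.

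The sequences that follow show what such regions look like, read on the coding strand from the GRCm38 reference, the build of the deposited positions (mm10). All stretches lie inside 1 coding exon. The first 5 belong to the strongest or most footprinted regions, and capitals mark bases that footprints of both libraries covered. They lie in Angptl6 (chr9:20878141-20878290, minus strand), Fbxl22 (chr9:66511771-66511920, minus strand), Stat5b (chr11:100790751-100790900, minus strand), Col6a3 (chr1:90775746-90775895, minus strand) and Gcgr (chr11:120538556-120538694, plus strand).

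Angptl6: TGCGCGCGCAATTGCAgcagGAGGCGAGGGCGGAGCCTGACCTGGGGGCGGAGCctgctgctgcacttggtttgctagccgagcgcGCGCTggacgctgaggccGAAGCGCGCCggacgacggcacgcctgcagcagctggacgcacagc
Fbxl22: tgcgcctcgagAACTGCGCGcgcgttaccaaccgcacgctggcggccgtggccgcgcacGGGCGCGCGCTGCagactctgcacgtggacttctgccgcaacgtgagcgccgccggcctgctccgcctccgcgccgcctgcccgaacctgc
Stat5b: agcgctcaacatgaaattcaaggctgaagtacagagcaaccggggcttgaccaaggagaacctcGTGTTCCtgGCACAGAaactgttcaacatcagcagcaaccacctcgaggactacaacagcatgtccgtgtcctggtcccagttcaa
Col6a3: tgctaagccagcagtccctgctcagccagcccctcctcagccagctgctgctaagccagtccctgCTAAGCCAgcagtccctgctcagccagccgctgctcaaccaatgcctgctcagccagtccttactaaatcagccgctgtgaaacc
Gcgr: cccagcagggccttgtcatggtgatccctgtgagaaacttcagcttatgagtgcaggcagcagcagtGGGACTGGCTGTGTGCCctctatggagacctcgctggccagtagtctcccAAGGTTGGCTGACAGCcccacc

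The Angptl6 and Fbxl22 stretches were 72.0% and 75.3% G or C, and the Stat5b stretch was 52.0%. In Angptl6, 65 of 150 bases lay in footprints of both libraries, against 8 of 150 in Col6a3. The next 3 stretches carry a CTCF motif match, in capitals, that lay in a footprint of both libraries. They lie in Synpo2l (chr14:20661132-20661203, minus strand), Hey1 (chr3:8664662-8664733, minus strand) and Rasip1 (chr7:45628929-45629000, plus strand). The match was on the coding strand in Synpo2l and on the opposite strand in Hey1 and Rasip1.

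Synpo2l: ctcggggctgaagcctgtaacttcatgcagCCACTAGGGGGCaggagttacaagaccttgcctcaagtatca
Hey1: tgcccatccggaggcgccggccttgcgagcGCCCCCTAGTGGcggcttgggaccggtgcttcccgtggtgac
Rasip1: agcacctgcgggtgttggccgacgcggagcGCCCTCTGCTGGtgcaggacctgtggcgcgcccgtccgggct

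Coding sequence more than 1 kb from any start held 45.5 shared peaks per Mb (95% Poisson interval 42.9 to 48.2), introns held 14.2 (13.9 to 14.4) and untranslated exons held 19.9 (18.5 to 21.2). Coding sequence was thus 3.22 times as dense as introns. The ratio was 4.11 for all peaks of replicate 1 and 3.05 for all peaks of replicate 2 (mean 3.58 ± 0.754, SD, n = 2). A second deposited file, of segments with a significant cut rate, covered 2.08% of coding bases and 0.505% of intron bases in replicate 1, and 8.2% and 2.78% in replicate 2. Both files and both libraries placed coding sequence above introns. When the whole region, not its midpoint, had to lie in coding sequence or in intron, the ratio fell to 1.28.

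Base composition moved with this excess. Coding exon peaks had a median GC content of 60% in a 150 bp window, against 54.7% for intronic shared peaks and 53.3% for windows centred on the coding exons of the same genes. They held a median of 6 CpG dinucleotides, against 2 in intronic shared peaks. When coding and intron bases were compared within the same class of GC content, shared peaks showed no excess summed over the classes: the 1142 coding exon peaks were 0.761 times the 1501 that the intronic density of each GC class would give. For the libraries' own lists this ratio was 1.08 in replicate 1 and 1.07 in replicate 2. By class, the shared peak ratio was 1.72 at 40 to 45% GC (6 coding exon peaks), 1.17 at 45 to 50% GC, 0.871 at 50 to 55%, 0.625 at 55 to 60%, 0.677 at 60 to 65%, 1.06 at 65 to 70% and 0.968 from 70%, while the class under 40% held 1 coding exon peak. Replicate 1's own list was above 1 in the lower classes, at 1.73 for 45 to 50% and 1.30 for 50 to 55%. It was also above 1 at 65 to 70% (1.35) and from 70% (1.18). At 55 to 60% and 60 to 65% it was 0.937 and 0.931. Replicate 2's own list ran from 0.980 under 40% GC to 1.61 at 65 to 70%, and was above 1 in every class from 40%. This comparison was added after the data were seen, and whether GC content is the reason for the excess was not tested.

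**Figure D1:**
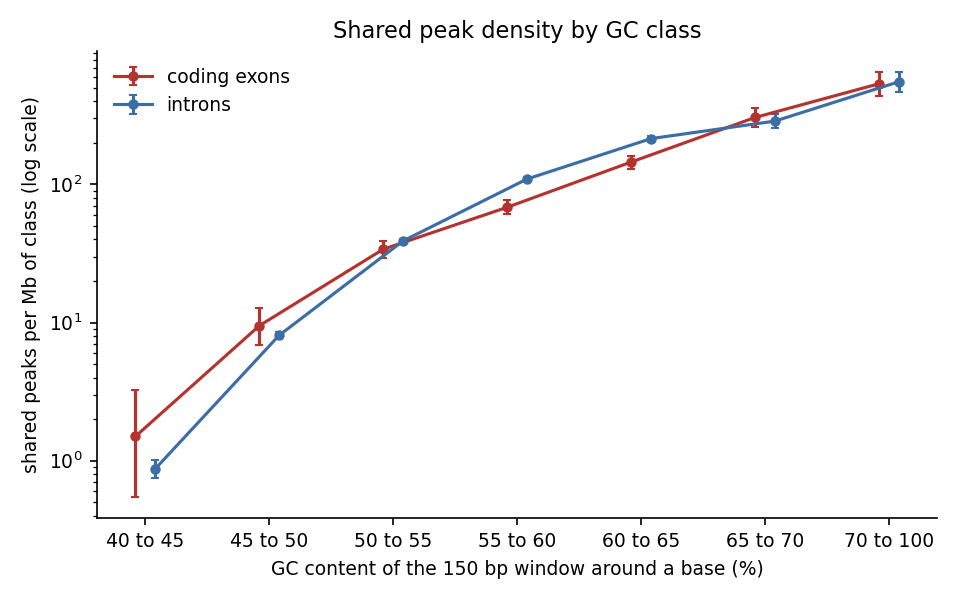
Shared peaks per Mb (log axis) in coding exons and introns more than 1 kb from any start, by GC content of the 150 bp window around each base, with 95% Poisson intervals. Both classes climb with GC content, and coding exons lie below introns, with intervals apart, between 55 and 65% GC.

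Within genes, peaks were densest at the outer coding exons. First coding exons held 95.4 per Mb (95% interval 77.1 to 116.8), genes with a single coding exon 86.3 (70.8 to 104.1), last coding exons 70.3 (62.9 to 78.5) and internal coding exons 33.4 (30.8 to 36.2). These counts use the 1123 regions that lie in the longest coding transcript of their gene. Last coding exons held 28.7% of the regions (26.0 to 31.4) and 18.5% of the coding bases. Internal exons still held most regions, 598 of 1123. Over all 1142 regions, those in first and single coding exons lay a median of 1641 and 1630 bp from the nearest start. Those in internal and last coding exons lay 4491 and 4224 bp away. Median GC content was 64.0% in first, 62.7% in single, 61.3% in last and 58.0% in internal coding exons. The median coding length of these exons was 860.5, 1272, 457 and 200 bp. Place of the exon was not separated from distance to a start, GC content or exon length.

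Exon length and distance from a start moved with density as well. Exons with under 100 coding bp held 19.0 per Mb, and exons with 300 bp to under 1 kb of coding sequence held 82.6, but exons of 1 kb or more held 60.1 (53.0 to 68.0). Among internal exons alone the values were 15.85, 67.1 and 42.6. Bases within 50 bp of a splice junction held 24.4 per Mb, and bases 100 bp or more away held 76.3. Density was 85.0 per Mb at 1 to 2 kb from the nearest start and 20.5 at 50 kb or more. The last 20% of the coding sequence held 56.95 per Mb (50.9 to 63.5), above the 36.8 (31.6 to 42.6) of the second and the 40.4 (35.1 to 46.3) of the third 20%. Its interval overlapped those of the first, at 45.9 (39.3 to 53.4), and the fourth, at 45.6 (40.03 to 51.7). Regions often ran past an edge of the coding part of their exon (720 of 1142, 63.0%), and 323 covered it whole. Their median width was 260 bp and the median share of the region in coding sequence was 83.9%.

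**Figure D2:**
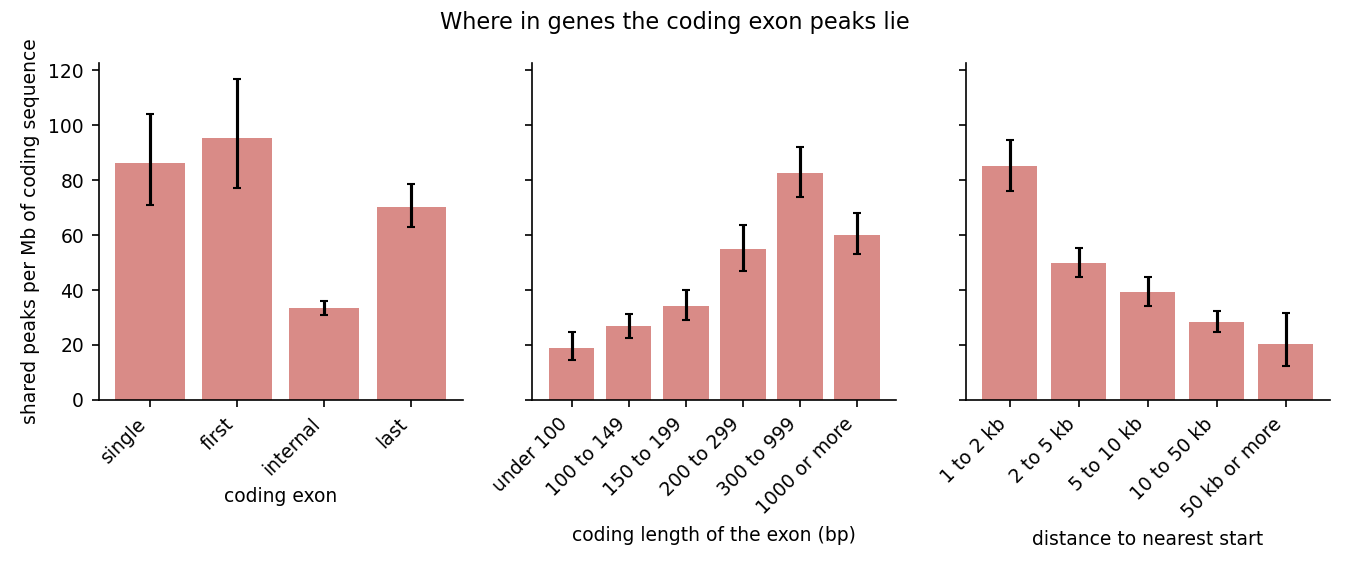
Coding exon peaks per Mb of coding sequence by place of the exon, coding length of the exon and distance to the nearest transcript start, with 95% Poisson intervals. Internal exons sit at 33.4 per Mb and density falls from 85.0 to 20.5 per Mb with distance.

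The 205 regions up to 1500 bp from a start had median signal percentiles of 48.3 and 80.7 in replicates 1 and 2, and the 452 coding shared peaks just outside the rule, at over 500 and up to 1000 bp, had 54.4 and 83.2. The nearest start belonged to another gene for 322 regions (28.2%).

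Coding exon peaks were weaker than other shared peaks. The deposited signal of a peak has no stated scale, so it is given as its percentile in the library's own list. The median was 48.1 in replicate 1 and 81.1 in replicate 2, against 53.3 and 87.1 for intronic and 61.3 and 89.5 for all shared peaks. Replicate 2 lists 258342 peaks and replicate 1 lists 66984, so a shared peak ranks higher in replicate 2. The strongest 10% of replicate 2's list held 21.1% of coding exon peaks and 36.2% of intronic shared peaks. For replicate 1's list the shares were 2.01% and 2.91%. Across the 1142 regions the signals of both libraries were ordered alike (Spearman rho 0.808, a description over regions of the same 2 libraries).

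**Figure D3:**
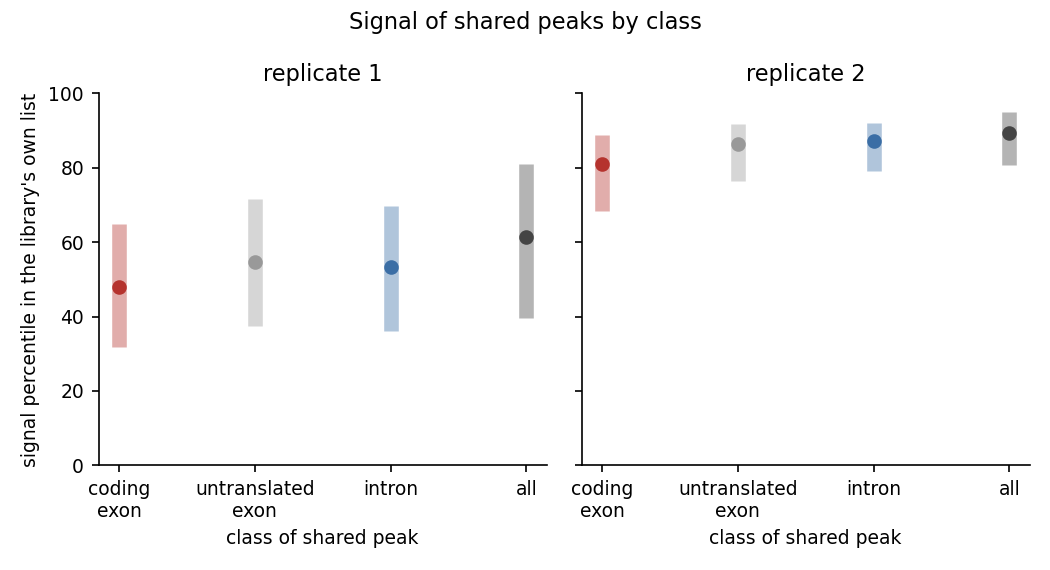
Signal percentile of shared peaks in each library's own list, by class. Points are medians and bars run from the lower to the upper quartile, and in both libraries the coding exon median (48.1 and 81.1) is below the intronic median (53.3 and 87.1).

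Of replicate 1's 2049 peaks in coding exons, 61.1% (95% interval 59.0 to 63.2) overlapped a peak of replicate 2, below the 72.9% (72.3 to 73.6) of its intronic peaks. Of replicate 2's 7992, 15.3% (14.5 to 16.1) overlapped a peak of replicate 1, above the 14.0% (13.8 to 14.2) of its intronic peaks. The libraries thus differ on whether coding peaks recur less often than intronic ones.

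Footprints were found in 83.5% of coding exon peaks in replicate 1 and 82.6% in replicate 2 (mean 83.1% ± 0.681, SD, n = 2). Intronic shared peaks had 85.8% and 91.65%. Both libraries had a footprint in 70.8% of coding exon peaks, and neither had one in 4.73%. Of replicate 1's 2731 footprints in coding exon peaks 82.4% lay wholly in coding sequence, as did 81.4% of replicate 2's 2865. Of replicate 1's footprints 32.8% (31.0 to 34.6) overlapped one of replicate 2, against 45.5% (44.9 to 46.1) in intronic shared peaks. Of replicate 2's footprints 31.7% (30.03 to 33.5) overlapped one of replicate 1, against 36.1% (35.6 to 36.7). Both shares were below the intronic ones when peaks of all strengths were pooled.

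Footprint shares moved with signal strength. In the weakest 20% of shared peaks, 72.9% and 70.4% of coding exon peaks had a footprint in replicates 1 and 2, and in the strongest 20% 100% (50 of 50) and 98% did. Among the weakest, 13.6% of replicate 1's footprints recurred in coding exon peaks (95% interval 11.1 to 16.4) and 21.5% in intronic ones (20.2 to 22.9). Among the strongest the shares were 56.96% (50.4 to 63.4) and 63.6% (61.8 to 65.3), so these intervals overlap. In each 20% between these, replicate 1's intervals were apart, with coding exon peaks lower. For replicate 2's footprints the intervals overlapped in every 20%. In the weakest, the coding exon share was 14.0% (11.4 to 16.9) and the intronic share 17.8% (16.7 to 18.9). In the strongest they were 64.5% (57.8 to 70.9) and 58.6% (56.9 to 60.3). Of coding exon peaks 34.6% were among the weakest 20%, against 22.9% of intronic ones.

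Motifs were sought on both strands in the 150 bp window. The E-box CAGCTG, the site of the myogenic factors, was in 26.7% of coding exon peaks (95% interval 24.2 to 29.4), 25.8% of intronic shared peaks, 19.2% of all shared peaks and 15.9% of windows centred on the host genes' coding exons (15.1 to 16.6). Coding exon peaks thus held it about as often as intronic ones and more often than their own genes' exons at large. The exon windows had a median GC content of 53.3%, against 60% in coding exon peaks. No motif was compared with host exon windows within GC classes. Of 369 such E-boxes, 23.0% touched a footprint with any base in replicate 1, 26.8% in replicate 2 and 10.6% in both. Footprints covered 10.1% and 12.3% of all window bases. A site of several bases touches a footprint more easily than a single base does, so these shares cannot be compared directly. Of these E-boxes 339 lay wholly in the reference coding sequence, and 58.7% of the 339 began at the first base of a codon (53.3 to 64.0), against 52.8% of the E-boxes in all coding sequence, which lies just under that interval.

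Motif matches for CTCF were in 1.75% of coding exon peaks (1.07 to 2.69), 2.58% of intronic shared peaks, 2.17% of all shared peaks and 0.198% of host exon windows (0.119 to 0.309). Of the 20 matches, 12 touched a footprint in replicate 1, 17 in replicate 2 and 10 in both. The Synpo2l, Hey1 and Rasip1 matches printed above are among these 10, with Chpf, a chondroitin synthesis enzyme, and Pik3cd, a lipid kinase subunit. The palindromic motif of NRF1, a factor of nuclear genes for mitochondria, was in 1.31% of coding exon peaks (0.737 to 2.16), 0.227% of intronic ones and 0.240% of host exon windows. Within GC classes its intervals overlapped those of intronic peaks: 0.619% (0.169 to 1.58) against 0.249% (0.136 to 0.417) at 55 to 65%, 4.37% (2.20 to 7.68) against 1.09% (0.355 to 2.52) from 65%, and 0 of 237 against 0.149% at 45 to 55%.

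Some motifs were scarcer than in intronic shared peaks. The AP-1 motif TGANTCA, of FOS and JUN, was in 3.42% of coding exon peaks (2.44 to 4.64) and 9.37% of intronic ones (8.86 to 9.90), while host exon windows held it at 3.08%. Within windows of 55 to 65% GC the shares were 3.10% (1.90 to 4.74) and 8.31% (7.60 to 9.06). At 45 to 55% GC they were 7.17% (4.23 to 11.2) and 10.4% (9.63 to 11.2), so these intervals overlap. The TEAD motif ACATTCC stood at 1.40% against 3.25%, the RUNX motif TGTGGTT at 0.963% against 2.99%, and the motif of MEF2, a partner of MYOD, at 0.0876% (1 region) against 1.10%. For TEAD and MEF2 the intervals overlapped in every GC class, and for RUNX they were apart at 55 to 65% GC only. The ETS motif CCGGAAG went the other way, at 2.63% against 1.11%, and host exon windows held it at 2.25%. The core TTGGCA of NFI sites was in 15.9% of coding exon peaks, 20.6% of intronic ones and 10.02% of host exon windows.

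**Figure D4:**
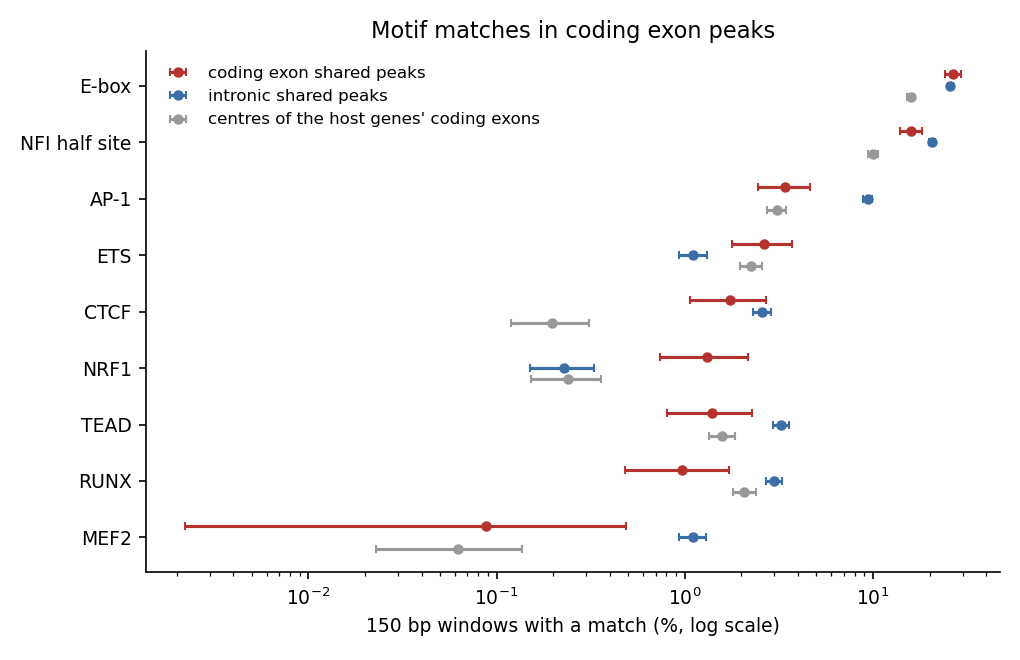
Share of 150 bp windows with a motif match (log axis, 95% exact intervals) in coding exon peaks, intronic shared peaks and windows centred on the host genes' coding exons. CTCF, NRF1 and E-box shares of coding exon peaks lie above those of host exons, and AP-1 lies at the host exon level. Host exon windows were not matched for GC content.

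The regions fell in 918 host genes, 4.78% of the 19214 genes with coding sequence beyond 1 kb of a start. Of these, 776 held 1 region and 142 held 2 or more. Longer genes were hosts more often: 13.8% of genes with 4000 or more such coding bases, and 1.25% of those with under 300. A start was called open in a library when a peak lay no more than 1 kb away. Of host genes 81.8% (79.2 to 84.3) had an open start in both libraries, as did 63.9% of genes that hosted none (63.2 to 64.6). The open start did not have to be the same in both, and the number of starts per gene was not compared.

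Ttn, which encodes the giant elastic protein titin of the sarcomere, held 28 regions in 24 coding exons, more than any other gene. They were weak: the signal ran from 0.181 to 0.761 in replicate 1 (median 0.386) and from 0.101 to 0.757 in replicate 2 (median 0.378), at median percentiles of 20.7 and 51.6. The strongest of them ranked 658 of 1142 coding exon peaks by mean signal rank. They lay in 2 stretches of the 105.6 kb coding sequence, 11 between coding exons 45 and 80 and 17 from coding exon 308 to 345, with 3 in the 17106 bp exon 308. The coding sequence of Ttn held 2.69 regions per 10 kb and its introns 0.844, at median GC contents of 46.0% and 38.7%. Most Ttn coding peaks were not shared: the libraries' own lists held 94 (replicate 1) and 78 (replicate 2), against 28 shared regions. Of the 28, 22 had a footprint in replicate 1 and 16 in replicate 2.

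**Figure D5:**
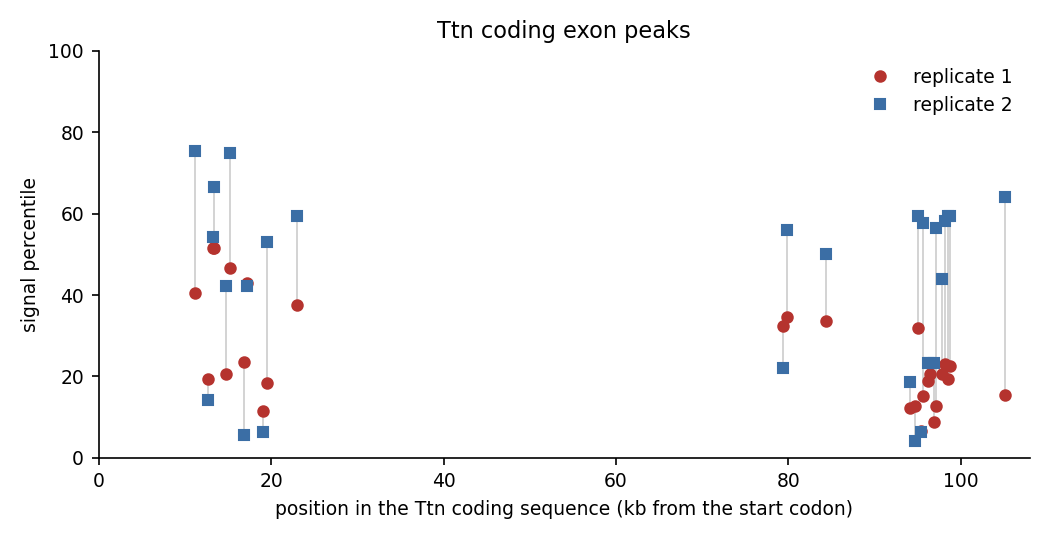
The 28 Ttn regions by position in the coding sequence (kb from the start codon) and signal percentile in each library, joined by a line per region. The regions form 2 stretches, and replicate 1 has a median percentile of 20.7.

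Plec, which encodes the linker plectin, held 10 regions in its last 2 coding exons, at median percentiles of 35.8 and 65.1. Bcl9l, a Wnt pathway cofactor, held 7 in 5 of its 8 coding exons, with medians of 50.2 and 79.1. Atp2a1, the calcium pump of fast fibres, held 5 in coding exons 8 to 15, with signals of 0.486 to 0.767 in replicate 1 and 0.415 to 0.745 in replicate 2. Tns2, a focal adhesion protein, also held 5. Syne1, Lamb2 and Llgl1 held 4 each.

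None of the 10 strongest regions lay in these genes. B430305J03Rik led with signals of 8.14 and 20.6 in replicates 1 and 2, followed by Angptl6, a secreted angiopoietin-like protein, with 8.47 and 17.8. Bcat2, the mitochondrial enzyme of branched chain amino acid breakdown, had 7.20 and 20.5 at its last coding exon, but only 13.8% of that region was coding. Lrrc24 had 4.99 and 12.9. Stat5b, a transcription factor of growth hormone signalling, had 4.23 and 6.30 in coding exon 12 of 18, 16026 bp from the nearest start. Col6a3, a collagen VI chain, had 3.52 and 6.85 in a region that was coding throughout. Fbxl22, Syp, Plekhh3 and Trim14 completed the 10. Of the 10, 7 lay in a last coding exon or single exon, as did 334 (last) and 109 (single) of all 1142 regions. Only part of some other regions was coding: 58.1% in B430305J03Rik, 57.1% in Syp and 52.5% in Lrrc24. Angptl6 had 155 bases in footprints of both libraries, B430305J03Rik 81, Gcgr, the glucagon receptor, 69, and Nrg2 and Synpo followed.

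Muscle gene lists held hosts at shares above the 4.78% of all genes. Of sarcomere and Z-disc genes 12 of 51 (23.5%) were hosts, with 45 regions, 28 of them in Ttn. Without Ttn the list had 17 regions in 11 of 50 genes, Synpo2l and Nrap among them. Of genes for excitation-contraction coupling 6 of 25 were hosts (Atp2a1, Stac3, Cacnb1 and Bin1 among them), and of glycolysis and glycogen genes 6 of 26 (Pfkm, Slc2a4, Pygm, Pfkfb4). Myogenic and fibre type regulators had 12 of 39, led by Six4 and Nfatc3. Myod1 and Myog had 1 region each, at percentiles of 54.4 and 79.8 for Myod1 and 68.1 and 84.7 for Myog. Circadian clock genes had 5 of 19 (Per1 with 3, Nr1d1, Dbp, Tef), and cytoskeletal linkers 10 of 33.

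Gene length differs between these lists. Among genes with 1 to 4 kb of such coding sequence, 6.33% of all genes were hosts, against 6 of 19 sarcomere, 6 of 24 myogenic, 2 of 13 clock and 0 of 6 linker genes. Excitation-contraction coupling had 3 of 10 and glycolysis and glycogen 3 of 14. Lists not particular to muscle were also above that share in this range, with extracellular matrix at 4 of 13 and chromatin cofactors at 4 of 26. Mitochondrial and fatty acid oxidation genes had 1 of 16. At any length, the mitochondrial list had 2 hosts of 28 and chromatin cofactors 7 of 48. Extracellular matrix genes had 6 of 36 (Lamb2, Col6a1, Col6a3, Lama5), Hox genes 3 of 31, keratins 3 of 57 and zinc finger genes 21 of 460 (4.57%). Clustered protocadherins had 0 of 55 and olfactory receptors 0 of 274. The lists share genes, and no list was tested.

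Marker lists of cell types were short, and 4.78% of all genes were hosts. Skeletal muscle markers were hosts in 5 of 9 cases with 9 regions (Atp2a1, Acta1, Ckm, Myod1, Myog), and all 10 annotated ones had a promoter peak in both libraries. Endothelial markers had 0 of 9 hosts, although 8 of 10 had such promoter peaks. Fibroblast markers had 0 of 8, tenocyte 0 of 5, macrophage 0 of 7, lymphocyte 0 of 6, Schwann cell 0 of 7, adipocyte 0 of 5 and neuron 0 of 4. Single hosts were Notch3 among 8 mural markers (3 regions, up to percentiles of 81.3 and 94.6), Myf5 among 5 satellite cell markers, Klf1 among 3 erythroid markers and Apoa1 among 4 hepatocyte markers. No marker of macrophages, lymphocytes, adipocytes or hepatocytes had a promoter peak in both libraries, and the part of other cell types in the regions was not tested.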

How the data were processed

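DNase-seq of 1 tissue in 2 libraries was used. Positions are on mm10 per the labels, and the deposited README of a library states that its peaks were called from its own alignments. Aligner and caller: not given in the sources used here. Depth is unknown. Each peak has the authors' signal value, whose scale is not stated, used only as a rank or percentile within its list. The authors' deposited p-value columns hold the false discovery rate of cut-rate segments and, for footprints, 0.01 in every row.

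The longer list of each library was used. Overlapping peaks were merged, and the midpoint was the mean of the strongest peaks' midpoints. Coding sequence and starts came from GENCODE M21, sequence from RefSeq GRCm38. Windows were 150 bp, and 17 motifs were sought. Intervals were exact at 95%. The regions and lists were chosen with earlier results of these data known. Named were the 10 genes with most regions, the 10 best mean signal ranks, the 5 best with a CTCF match in footprints of both libraries, up to 4 hosts per list and the 5 with most doubly footprinted bases, not all of which are printed, and some genes are not reported here. Functions were tested on simulated data and overlaps checked with bedtools 2.31.1. Python 3.11.15 was used with scipy 1.17.1 for intervals, pysam 0.24.0 for sequence, matplotlib 3.10.9 for figures, and pandas 2.3.3 and numpy 2.4.6.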

Additional observations from a re-analysis of the deposited data

How the results depend on the processing

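No paired analysis was possible because there is 1 group. Of 85 alternative values 45 moved by less than the spread between libraries (1.5 times for the count), and the cause of the other moves was not tested. This spread was 23.4 for the signal percentile, so a move from 64.6 to 53.7 with equal numbers counted as small. For the share of shared peaks it was 0.0245. The tally is therefore not a common measure of stability. The count of 1142 was 726 with 50% reciprocal overlap, 493 with the shorter lists, 755 with equal numbers of strongest peaks and 424 for regions wholly in coding sequence. The share of shared peaks was 3.24% and 1.63% with starts over 500 bp and 2 kb, 1.91% with reciprocal overlap, 1.68% with the shorter lists, 1.82% with equal numbers and 0.862% wholly coding. The coding to intron ratio of 3.22 was 1.28 when whole regions had to lie in a class, which short exons seldom allow. It was 0.761 against introns of the same GC class. The share with a footprint (83.1%) was 79.3% and 84.1% by start distance, 86.8% with reciprocal overlap, 87.4% with the shorter lists, 89.5% with equal numbers, 84.3% wholly coding and 76.4% for footprint midpoints in the window. GC content was 61.3% wholly coding. The CTCF share was 1.22% with the shorter lists, 2.52% with equal numbers, 1.18% wholly coding, and 1.31% and 2.45% in windows of 100 and 300 bp. The promoter share was 86.5% with starts over 500 bp and 76.5% with the shorter lists. With 1 library in place of shared peaks, the values ran from 2049 to 7992 regions, 3.06 to 3.09% of peaks, a ratio of 3.05 to 4.11, a signal percentile of 35.6 to 53.7, footprints in 59.8 to 73.4%, GC of 57.3 to 58.7%, CTCF in 0.688 to 1.27% and promoters in 83.9 to 88.8%.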
